A study of Mus musculus with 18 samples.

Results

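The natural killer (NK) cell receptor genes Ncr1, Klrb1c, Klrc1, Klrc2, Klrd1, Klrk1, Klre1, Klrg1 and Cd244 were followed in RNA from whole B16F10 tumors. They were taken by name from the 50600 genes of the deposited count table, where all 9 were found. B16F10 is a mouse melanoma cell line, and its cells had been injected under the skin of the right flank of C57BL/6 mice. CDN2 is a cyclic dinucleotide agonist of the innate immune sensor STING, exoCDN2 is CDN2 loaded into extracellular vesicles (EVs), and unloaded EVs are the vesicles without it. All tumors were collected 24 h after the last IT (intratumoral) injection and each group held 2 tumors. The p-values rest on the spread between tumors of the same group, estimated jointly over all groups in a fit. After 1 dose the groups had received PBS, unloaded EVs, exoCDN2 (0.1 µg), CDN2 (20 µg) or CDN2 (100 µg). After 2 doses, given 3 days apart, they had received PBS, exoCDN2 (0.1 µg), CDN2 (20 µg) or CDN2 of an amount that the labels do not give. No group of unloaded EVs at 2 doses was analysed, so a second dose of exoCDN2 cannot be told apart from a second dose of its vesicles. Agonist amounts differed between exoCDN2 and CDN2, and each comparison of them is one of treatments and not of equal amounts.

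NK cells are innate lymphocytes that kill stressed or transformed cells, and whether they do so depends on the balance of activating and inhibitory receptors at their surface. Ncr1 encodes the activating receptor NKp46, which is among the genes most restricted to NK cells and related innate lymphocytes. Klrb1c encodes the activating antigen by which NK cells are recognised in C57BL/6 mice, and Klrk1 encodes NKG2D, which binds stress-induced ligands and is also carried by activated CD8+ T cells. Klrc1 encodes the inhibitory receptor NKG2A and Klrc2 its activating relative NKG2C; both pair with the product of Klrd1, CD94, and bind the non-classical major histocompatibility molecule Qa-1 encoded by H2-T23. Klre1 encodes a partner chain of the Klri receptors, Klrg1 an inhibitory receptor for cadherins found on mature NK cells and effector T cells, and Cd244 a receptor of the SLAM family that binds CD48. T cells and some myeloid cells make several of these transcripts, so a level here is no count of NK cells. A bulk sample also cannot tell fewer cells of a type from less RNA per cell.

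In GRCm38 coordinates, 7 of the 9 genes lay on chromosome 6, and Klre1, Klrd1, Klrk1, Klrc2 and Klrc1 lay together within 101069 bases of the NK gene complex (chr6:129577905-129678973). Klrb1c (chr6:128778485-128789215) and Klrg1 (chr6:122270596-122282882) lay outside that stretch on the same chromosome. Ncr1 was on chromosome 7 (chr7:4337724-4345164), and Cd244, named Cd244a in the annotation used, was on chromosome 1 (chr1:171559193-171609746). Paralogs share reads, so every 150-base window (the read length) of the annotated transcripts was searched in all other genes. Windows shared with another gene made up 8.73% of those of Klrb1c, all with the overlapping gene Gm44511, 4.32% of those of Klrc1, all with Klrc2, and 2.48% of those of Klrc2, with Klrc1 and Klrc3. The other 6 genes shared none. Over their coding sequences Klrc1 and Klrc2 were 83.05% identical, and the last 100 coding bases were the same in both. Klrc2 and Klrc3 were closer, at 94.87%, with an identical run of 203 coding bases, which is longer than a read. Deposited values of Klrc1 and Klrc2 were not whole numbers in 3 of the 18 tumors each and were rounded by at most 0.0884 counts. A read tells Klrc1 from Klrc2 wherever it lies outside their shared windows, and the coding stretch in which they differ most is shown. The part of it up to coding base 273 of Klrc2 lies in the run identical to Klrc3 (bases 71 to 273), so the letters do not all tell Klrc2 from Klrc3. It runs from coding base 243 to 362 of Klrc1 and from 225 to 344 of Klrc2 in the GENCODE M21 transcripts, and the 53 bases of 120 that differ between these 2 genes are in capitals.
Klrc1: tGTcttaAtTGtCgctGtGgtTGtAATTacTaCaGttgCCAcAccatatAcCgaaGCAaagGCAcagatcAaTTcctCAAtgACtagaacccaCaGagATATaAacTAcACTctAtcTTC
Klrc2: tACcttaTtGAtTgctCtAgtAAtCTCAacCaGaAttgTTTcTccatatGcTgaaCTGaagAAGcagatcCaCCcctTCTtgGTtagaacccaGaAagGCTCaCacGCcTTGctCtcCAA

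The promoters of 4 of the 9 genes are shown, all of them with the letters marked in capitals. All 9 genes rose after 2 doses of exoCDN2, so the rise does not set these 4 apart. Each sequence holds 250 bases before and 50 bases after a RefSeq start site (GRCm38.p6), and capitals mark the letters TGTGGT, or ACCACA on the other strand, to which Runx factors bind. Runx factors are transcription factors of lymphocyte development.
Ncr1 (chr7:4337465-4337764, plus strand): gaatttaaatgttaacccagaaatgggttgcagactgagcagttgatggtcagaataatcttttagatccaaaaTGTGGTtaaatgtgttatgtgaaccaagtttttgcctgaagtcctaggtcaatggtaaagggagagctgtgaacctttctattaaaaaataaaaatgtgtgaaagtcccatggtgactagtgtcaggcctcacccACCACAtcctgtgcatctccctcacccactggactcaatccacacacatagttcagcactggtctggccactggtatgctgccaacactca
Klrb1c (chr6:128788592-128788891, minus strand): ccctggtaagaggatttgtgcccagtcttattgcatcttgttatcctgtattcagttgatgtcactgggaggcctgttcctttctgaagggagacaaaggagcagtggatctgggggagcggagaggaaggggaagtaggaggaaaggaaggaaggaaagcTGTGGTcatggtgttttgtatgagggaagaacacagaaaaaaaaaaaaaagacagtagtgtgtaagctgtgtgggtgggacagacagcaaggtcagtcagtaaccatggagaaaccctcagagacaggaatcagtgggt
Klrc1 (chr6:129678924-129679223, minus strand): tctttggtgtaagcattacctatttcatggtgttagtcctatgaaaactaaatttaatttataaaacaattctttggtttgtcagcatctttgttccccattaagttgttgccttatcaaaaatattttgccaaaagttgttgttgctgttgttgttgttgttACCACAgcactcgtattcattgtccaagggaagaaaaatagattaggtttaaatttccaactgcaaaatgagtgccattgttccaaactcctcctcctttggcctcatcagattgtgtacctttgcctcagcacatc
Klrk1 (chr6:129623815-129624114, minus strand): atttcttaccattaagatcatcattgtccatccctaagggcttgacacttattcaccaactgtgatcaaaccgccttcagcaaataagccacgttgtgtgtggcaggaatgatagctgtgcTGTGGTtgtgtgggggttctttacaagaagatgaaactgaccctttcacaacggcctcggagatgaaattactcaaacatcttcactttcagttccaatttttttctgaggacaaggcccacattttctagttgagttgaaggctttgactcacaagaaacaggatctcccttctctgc
Of the 9 genes, 7 had an entry in the promoter table, and 6 of these held the Runx letters on either strand, against 16.9% of all 27025 promoters of the same length. Ncr1 and Klrc2 held them at 2 places each, and Klrb1c, Klrc1, Klrk1 and Klre1 at 1 place each. Cd244 held none. The letters of a gamma-activated site (TTCNNNGAA, in 8.47% of all promoters), an interferon-stimulated response element (GAAA, any 2 bases, GAAA; 3.49%), a T-box (GGTGTGA, 3.96%) and an Ets site (CAGGAAG, 13%) were found in none of the 7, on either strand. None of the 5 motifs overlapped another in these windows. A match is a description of letters and shows no binding.

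Total expected counts per tumor lay between 21608895 and 65983630, and the shallowest tumor was replicate 1 of the group given 2 doses of CDN2 (20 µg). That group's 2 tumors also agreed least with each other, with Pearson's r of 0.944 across genes against 0.975 to 0.991 in the other 8 groups, and 28.2% of genes differed over 2-fold between them. The receptor genes were low. A count of 0 was found for 5 of the 162 pairs of a gene and a tumor, where the upper limit that a count of 0 allows (3 counts) came to between 0.0657 and 0.0742 counts per 1000000 counts of the scaled library (CPM). Intervals and limits of this kind cover counting error only. All 9 genes passed the filter on low counts, but Klrc2 passed it only through the tumors given 2 doses of exoCDN2, so it had to be high in that group for a test to exist. Klrc2 therefore adds no support to any count of receptor genes higher in that group.

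**Figure D1:**
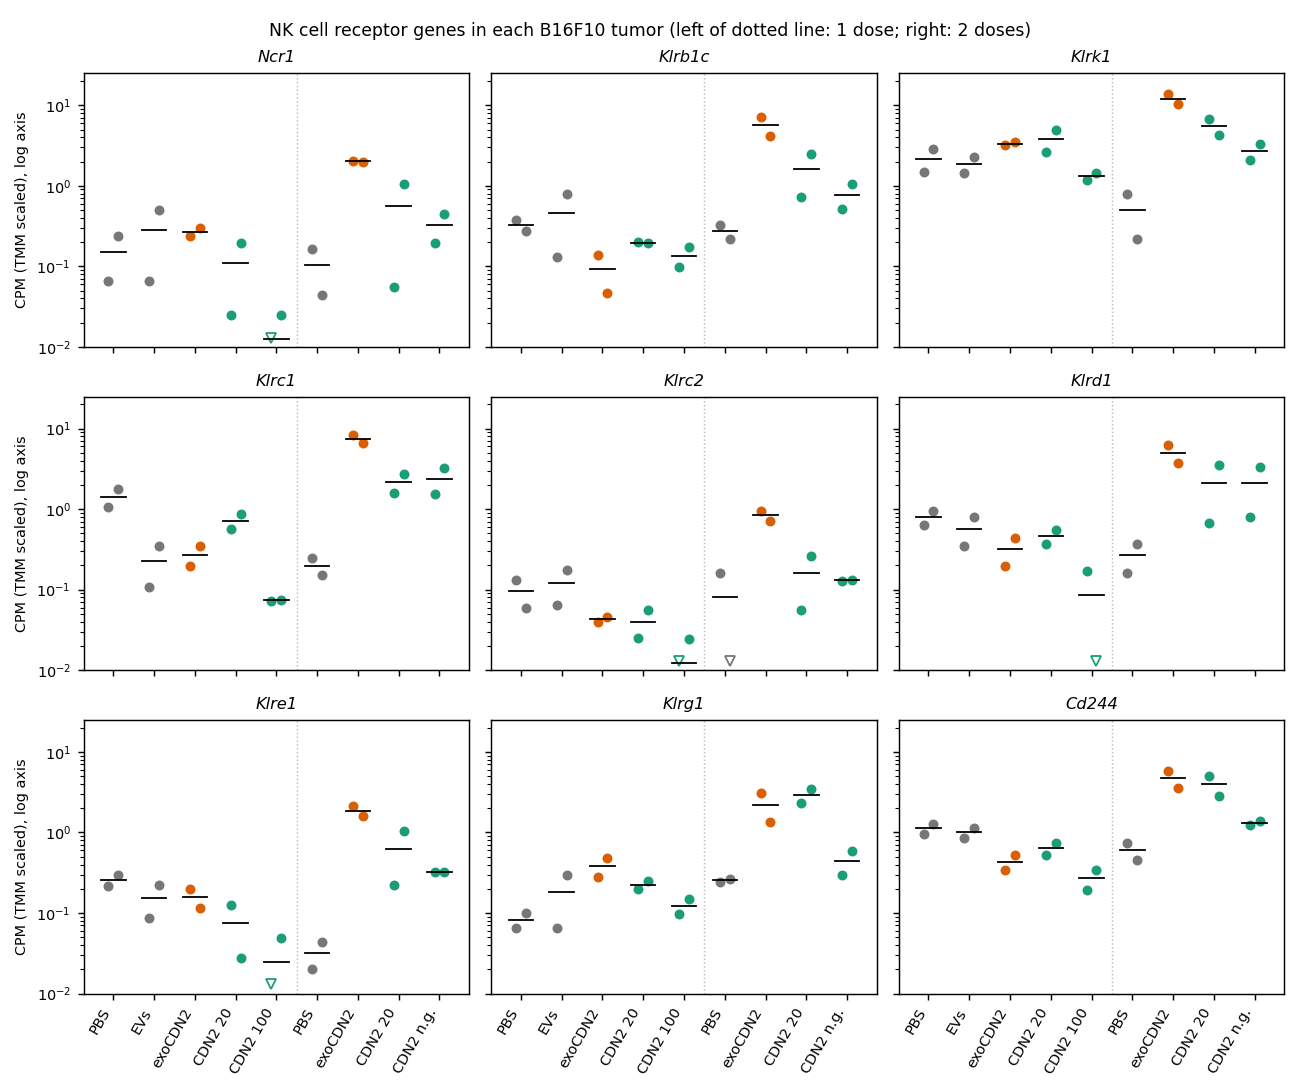
Level of each of the 9 NK cell receptor genes in each tumor, in CPM scaled by TMM on a log axis. Points are single tumors (2 per group), horizontal bars are group means, and open triangles at the lower edge are counts of 0; amounts after CDN2 are in µg, n.g. means that the amount is not given, and colours separate controls (grey), exoCDN2 (orange) and CDN2 (green). The tumors given 2 doses of exoCDN2 were above all other tumors for 7 genes, and Klrg1 and Cd244 are the exceptions.

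After 2 doses of exoCDN2, all 9 receptor genes were higher than after 2 doses of PBS, by log2 fold changes of 2.97 to 5.75. Across all 16927 genes tested, 8.87% were called higher in this comparison. The median of the 9 log2 fold changes was 4.23, against 0.0064 for all genes. A call needed a ratio over 2 and, after Benjamini-Hochberg adjustment, a p under 0.05 from edgeR's quasi-likelihood F-test, and all log2 fold changes with standard errors (SE) come from that fit to 16 tumors. In 7 of the 9 genes both exoCDN2 tumors were above each of the 16 other tumors, an order that held for 3.45% of all genes. Klrc2 is in both counts and in the median. It was tested only because it was high in these exoCDN2 tumors, so it adds no support to them.

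Of the activating receptors, Ncr1 was at 2.04 and 1.99 CPM in the tumors given 2 doses of exoCDN2 (105 and 141 counts). It was at 0.163 and 0.0438 CPM in those given 2 doses of PBS (8 and 2 counts). The groups did not overlap, and Ncr1 was higher by a log2 fold change of 4.23 ± 1.13 (SE, n = 2 tumors per group, adjusted p = 0.0227 in edgeR's test). That call ended when any 1 of the 4 tumors was left out, with adjusted p between 0.0519 and 0.171. Klrb1c was at 7.21 and 4.16 CPM after exoCDN2 and at 0.327 and 0.219 CPM after PBS. The groups did not overlap here either, and the log2 fold change was 4.36 ± 0.76 (adjusted p = 0.00228). Klrk1 was at 13.7 and 10.5 CPM after exoCDN2 (703 and 742 counts) and at 0.796 and 0.219 CPM after PBS (39 and 10 counts). Its log2 fold change was 4.55 ± 0.57 (adjusted p = 0.00027), and its groups did not overlap.

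Of the NKG2 receptors that pair with CD94, inhibitory Klrc1 was at 8.24 and 6.55 CPM after 2 doses of exoCDN2 and at 0.245 and 0.153 CPM after 2 doses of PBS. Klrc1 thus had a log2 fold change of 5.19 ± 0.55 (adjusted p = 8.01e-05), the smallest adjusted p of the 9 genes. Activating Klrc2, whose letters that differ from Klrc1 are shown above, was at 0.954 and 0.719 CPM after exoCDN2, and at 0.163 and 0 CPM after PBS (49 and 51 counts against 8 and 0). Its log2 fold change of 3.28 ± 0.93 (adjusted p = 0.0297) lost its call without PBS replicate 2, without either exoCDN2 tumor and in a fit of the compared groups alone, with an adjusted p of up to 0.174 when a tumor was left out. Klrd1, the shared partner chain, was at 6.21 and 3.76 CPM after exoCDN2 and at 0.163 and 0.372 CPM after PBS, and its log2 fold change was 4.21 ± 0.89 (adjusted p = 0.00657). Without PBS replicate 1 the adjusted p of Klrd1 was 0.0517. Summed over each group's tumors and not corrected for length, Klrc1 and Klrc2 had 888 and 100 counts after 2 doses of exoCDN2, a ratio of 8.88, and 19 and 8 counts after 2 doses of PBS, a ratio of 2.38 that rests on few counts.

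Klre1, which encodes the partner of the Klri receptors, was at 2.14 and 1.59 CPM after 2 doses of exoCDN2 (110 and 113 counts). After 2 doses of PBS it had 1 and 2 counts, so that the fitted log2 fold change of 5.75 ± 0.92 (adjusted p = 0.00132) rests on 3 control counts. The ratio of its summed counts, scaled for library size, was 57.5 with a 95% counting interval of 19.4 to 281. Klrg1 was at 3.10 and 1.34 CPM after exoCDN2 and at 0.245 and 0.263 CPM after PBS, a log2 fold change of 3.11 ± 0.59 (adjusted p = 0.00364). Cd244 was at 5.86 and 3.55 CPM against 0.735 and 0.460 CPM, with a log2 fold change of 2.97 ± 0.44 (adjusted p = 0.000817). None of these genes had overlapping groups. The inhibitory receptors Klrc1 and Klrg1 were thus higher in the same 2 tumors as the activating Ncr1, Klrb1c, Klrc2 and Klrk1.

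Per kilobase of merged exons, the only scale on which levels of different genes are compared here, Klrd1 and Klrc1 were the highest after 2 doses of exoCDN2, at 3.89 ± 1.35 and 3.73 ± 0.60 RPKM (SD, n = 2). Klrb1c followed at 1.92 ± 0.73, Klrk1 at 1.68 ± 0.32, Klrg1 at 1.57 ± 0.88 and Ncr1 at 1.31 ± 0.03 RPKM. Cd244 at 0.965 ± 0.335, Klre1 at 0.535 ± 0.111 and Klrc2 at 0.144 ± 0.029 RPKM were the lowest. The level of Klrc2 depends on its annotated exon length of 5812 bases, against 1984 bases for Klrc1. After 2 doses of PBS, Klrd1 again had the highest mean, at 0.209 ± 0.115 RPKM, but in replicate 1 it was below Klrg1 (0.127 against 0.173 RPKM). Klrg1 at 0.1795 ± 0.0089 and Cd244 at 0.1225 ± 0.0399 RPKM came next, above Klrc1 at 0.100 ± 0.033 RPKM.

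Other genes of NK cells and of the receptors' pathway rose in the same comparison. Among 14 genes of NK identity and killing, 13 were called higher (median log2 fold change 5.11), and Itga2 at 0.78 did not pass (adjusted p = 0.446). Granzyme genes Gzma and Gzmb rose by 6.47 and 6.76, and Ccl5, a chemokine, by 6.97 on the log2 scale. Of 18 other NK receptor genes tested, out of 24 listed, 16 were called higher (median 4.02), among them the Ly49 genes Klra4 and Klra8 at 5.44 and 4.90, and Slamf7, of the same family as Cd244, was at 4.56. Klra genes are close paralogs of each other, and the division of reads among them is uncertain. Of 12 adaptor and signalling genes, 9 were called higher (median 2.84), among them Sh2d1a, an adaptor of SLAM receptors, at 4.96, and Zap70, a kinase of receptor signalling, at 4.35. Of 7 tested genes of NK-supporting cytokines and their receptors, 6 were called higher, among them Il12rb1 at 5.35.

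Of 10 tested ligand genes, 3 were called higher, and the median log2 fold change was 0.59. H2-T23, whose product is bound by CD94 with NKG2A or NKG2C, rose by 5.56, from 8.35 and 8.89 CPM after 2 doses of PBS to 541 and 271 CPM after 2 doses of exoCDN2 (adjusted p = 3.03e-05). Clec2d, a ligand of the Klrb1 family, rose by 3.53 (adjusted p = 8.66e-05), and Cd48, the ligand of Cd244, by 2.24 (adjusted p = 0.00675). The NKG2D ligand genes Raet1d at -0.23, Raet1e at -0.53, H60b at 0.71 and Ulbp1 at 0.16 did not pass the test, nor did the Klrg1 ligand gene Cdh1 at 0.55. These 5 are named after their values were seen, as the ligands of receptors described here.

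Markers of T cells and neutrophils were mostly called higher in the same comparison, and those of other leukocytes in part or not at all. Of 9 T cell genes tested, 8 were called higher after 2 doses of exoCDN2 against PBS (median 4.51), and their summed level was 31.9 to 42.7 CPM against 1.20 to 2.29 CPM. All 5 neutrophil genes were called higher (median 5.07; summed level 17.8 to 60.2 against 1.55 to 1.96 CPM), as were 2 of 6 macrophage genes (267.5 to 388.9 against 137.9 to 157.1 CPM), while 0 of 3 B cell, 0 of 4 dendritic cell and 0 of 4 mast cell or basophil genes passed edgeR's test. None of 6 melanoma genes was called, since Dct at -0.82 (adjusted p = 0.000919) and Mlana at -0.67 (adjusted p = 0.0025) changed by a ratio under 2 and the others did not pass. Their summed level was 14550 to 15620 against 23020 to 23500 CPM. Ptprc, which encodes the pan-leukocyte antigen CD45, rose by 3.47 (76.3 and 111.5 against 11.8 and 5.17 CPM). The part of these changes in the levels of the receptor genes was not tested.

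Set against Ptprc within each tumor, 5 of the 9 receptor genes were still above 2 doses of PBS in both exoCDN2 tumors, an order found for 2.23% of all genes. Klrc1 had 73.9 and 85.8 counts per 1000 Ptprc counts after exoCDN2, and 20.8 and 29.7 after PBS. Klrk1 had 122.8 and 137.0 against 67.7 and 42.4, and Klrb1c 64.6 and 54.5 against 27.8 and 42.4. Ncr1, at 18.3 and 26.0 against 13.9 and 8.47, and Klre1, at 19.2 and 20.9 against 1.74 and 8.47, were the others. Klrc2, Klrd1 and Klrg1 overlapped, and Cd244 was lower, at 52.6 and 46.5 against 62.5 and 89.0. On this scale 93.0% of all genes were lower after exoCDN2, since Ptprc itself rose. Against 1 dose of PBS, 5 genes (Ncr1, Klrb1c, Klrd1, Klre1 and Klrg1) were above, where 1.91% of all genes were, and Cd244 was below with 92.5% of them, but Klrc1 overlapped, at 69.3 and 83.4 counts per 1000 Ptprc counts in those PBS tumors.

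**Figure D2:**
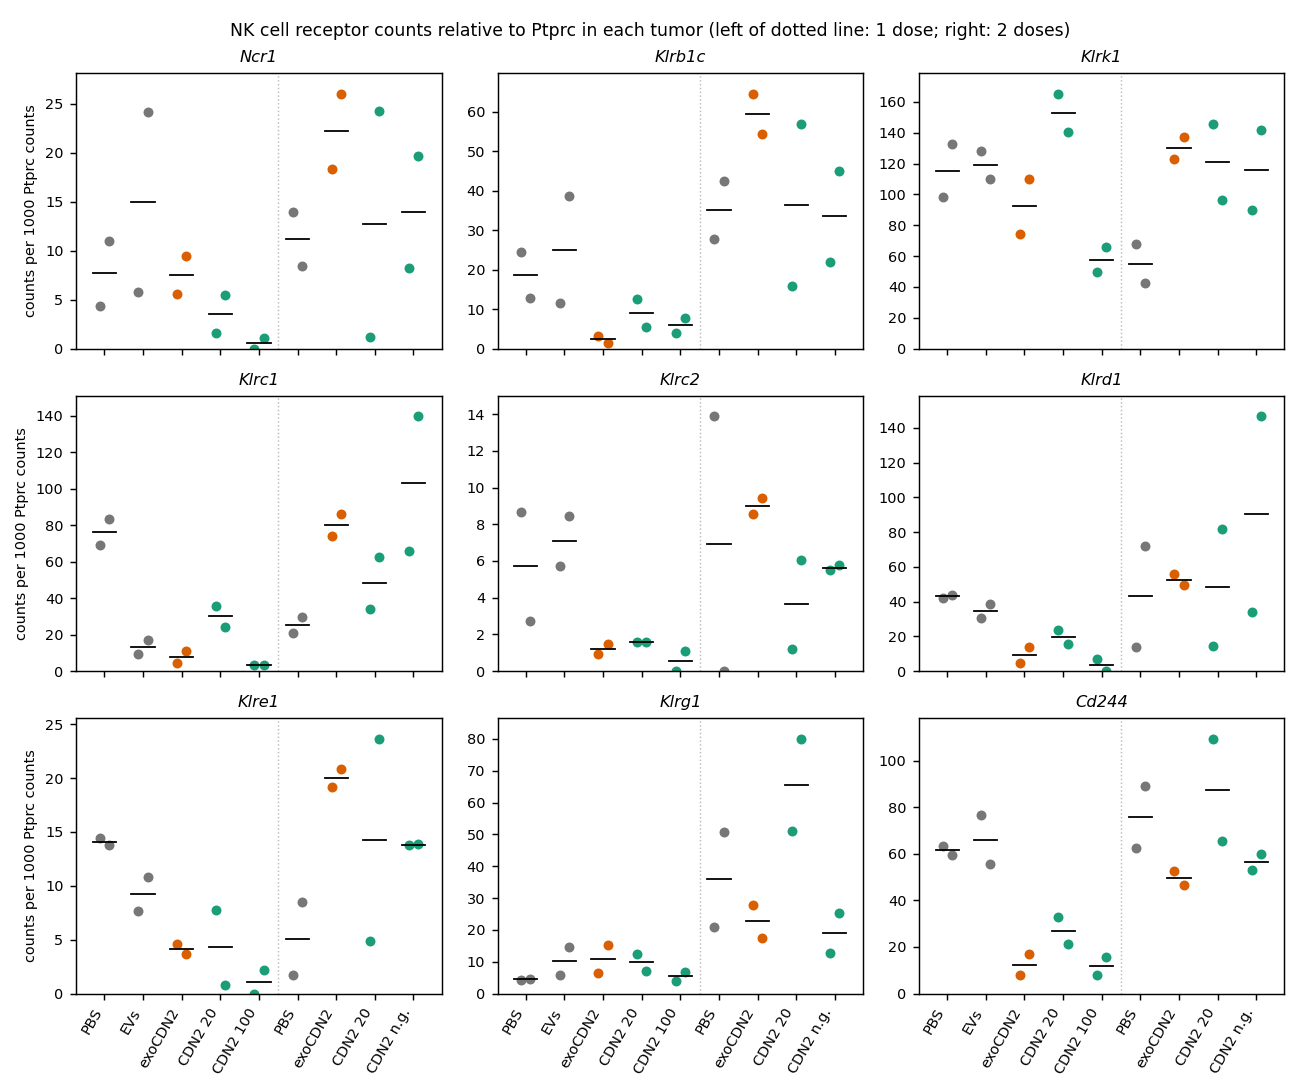
Counts of each NK cell receptor gene per 1000 counts of Ptprc in the same tumor, on linear axes that start at 0. Points are single tumors (2 per group) and horizontal bars are group means, with groups and colours as in the plot of CPM. Tumors given 2 doses of exoCDN2 lie above those given 1 dose of exoCDN2 for all 9 genes, and below both PBS groups for Cd244.

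Of the 9 genes, 8 were called higher after 2 doses than after 1 dose of exoCDN2, where 5.10% of all genes were. Klrb1c was at 0.139 and 0.0460 CPM after 1 dose, 5.86 ± 0.86 lower in log2 CPM than after 2 doses (adjusted p = 0.00274). Klrc1 rose from 0.198 and 0.345 CPM by 4.76 ± 0.53 (adjusted p = 0.00156), and Cd244 from 0.337 and 0.529 CPM by 3.44 ± 0.46 (adjusted p = 0.00168). Those 3 calls held with each tumor left out. The calls of Klrc2 (4.20 ± 1.02), Klrd1 (3.97 ± 0.87), Klre1 (3.54 ± 0.76) and Klrg1 (2.54 ± 0.57) each ended without either tumor of 1 dose or without exoCDN2 replicate 1 of 2 doses. Klrk1 differed least between the doses, from 3.19 and 3.47 CPM, by 1.86 ± 0.49 (adjusted p = 0.0301), and its call ended without any 1 of the 4 tumors. Ncr1 was at 0.238 and 0.299 CPM after 1 dose, and its log2 fold change of 2.90 ± 1.02 did not pass (adjusted p = 0.0848). Relative to Ptprc, all 9 genes were higher after 2 doses than after 1 dose, against 4.29% of all genes.

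PBS tumors differed between the doses too, in the other direction. Klrc1 fell from 1.05 and 1.80 CPM after 1 dose of PBS to 0.245 and 0.153 CPM after 2 doses, a log2 fold change of -2.82 ± 0.53 (adjusted p = 0.0211), where 1.05% of all genes were called lower. It was the one receptor gene called, and its call ended without PBS replicate 2 of 1 dose or either tumor of 2 doses, with adjusted p of up to 0.252. Klrk1 at -2.09 (adjusted p = 0.116) and Klre1 at -2.92 (adjusted p = 0.268) did not pass, and Klrg1 was at 1.58 (adjusted p = 0.474). T cell genes had a summed level of 10.2 to 12.6 CPM after 1 dose of PBS and 1.20 to 2.29 CPM after 2 doses. With the 4 PBS tumors pooled as controls, all 9 receptor genes were still called higher after 2 doses of exoCDN2, where 1654 genes in all were called higher or lower.

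Taking the change between doses relative to PBS, 6 of the 9 genes rose more between doses of exoCDN2 than between doses of PBS, where 5.12% of all genes did. Differences were 7.58 ± 0.75 for Klrc1 (adjusted p = 0.000562), 6.45 ± 1.23 for Klre1 (adjusted p = 0.00833), 6.10 ± 1.16 for Klrb1c (adjusted p = 0.00804), 5.54 ± 1.22 for Klrd1 (adjusted p = 0.0171), 4.35 ± 0.63 for Cd244 (adjusted p = 0.00208) and 3.94 ± 0.73 for Klrk1 (adjusted p = 0.00714), on the log2 scale. Ncr1, Klrc2 and Klrg1 did not pass, and Klrg1 was lowest at 0.96 (95% CI -1.15 to 3.06). The call of Klrd1 ended without PBS replicate 2 of 1 dose, PBS replicate 1 of 2 doses or replicate 1 of either exoCDN2 group, with adjusted p of up to 0.10.

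After 2 doses of CDN2 (20 µg), 7 of the 9 genes were called higher than after 2 doses of PBS, where 20.0% of all genes were. The 2 tumors disagreed about several of them. Klrd1 was at 0.673 CPM in replicate 1 and 3.58 CPM in replicate 2, Klrb1c at 0.729 and 2.49 CPM, Klre1 at 0.224 and 1.03 CPM, and Ncr1 at 0.0561 and 1.06 CPM (1 and 40 counts). Klrk1 and Cd244 went the other way, at 6.73 and 4.22 CPM and at 5.05 and 2.87 CPM. In the same tumors, neutrophil genes summed to 863.8 and 196.2 CPM and melanoma genes to 7324 and 12630 CPM; their part in the difference was not tested.

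Higher in both tumors and with each tumor left out were Klrc1 (1.57 and 2.73 CPM; 3.43 ± 0.54, adjusted p = 0.000413), Klrk1 (3.41 ± 0.56, adjusted p = 0.000531), Klrg1 (2.35 and 3.50 CPM; 3.53 ± 0.60, adjusted p = 0.000664) and Cd244 (2.71 ± 0.44, adjusted p = 0.000539). With the 4 PBS tumors pooled, Klrc1 was no longer called. The calls of Klrb1c (2.60 ± 0.75, adjusted p = 0.0130), Klrd1 (3.04 ± 0.87, adjusted p = 0.0128) and Klre1 (4.29 ± 0.96, adjusted p = 0.0033) ended without replicate 2 of the treated tumors, where adjusted p was 0.198, 0.268 and 0.0736. That of Klrb1c also ended without either PBS tumor, and that of Klrd1 without PBS replicate 1. Klre1 again rests on 3 control counts, with a counting ratio of 24.4 (95% interval 7.82 to 123). Ncr1 at 2.53 ± 1.15 (adjusted p = 0.086) and Klrc2 at 1.10 ± 1.05 (adjusted p = 0.40) did not pass, and both turned negative without replicate 2. Relative to Ptprc, Klrc1, Klrk1 and Klrg1 were above 2 doses of PBS in both tumors, against 5.69% of all genes, and the other 6 overlapped. Of the other lists, 12 of 14 NK identity genes, 14 of 18 tested NK receptor genes, 7 of 9 T cell genes and 5 of 5 neutrophil genes were called higher.

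Between the doses of CDN2 (20 µg), 5 genes were called higher, where 14.4% of all genes were. Klrg1 rose by 3.71 ± 0.62 (adjusted p = 0.0015) and Cd244 by 2.63 ± 0.45 (adjusted p = 0.00167) with each tumor left out. Klrb1c at 3.07 ± 0.79, Klre1 at 3.07 ± 0.87 and Klrc1 at 1.62 ± 0.48 lost their calls without replicate 2 of the 2-dose tumors, and each also without a tumor of 1 dose. Relative to PBS, 5 genes rose more between doses of CDN2 than of PBS (11.7% of all genes): Klre1 by 5.99 ± 1.32, Klrc1 by 4.44 ± 0.72, Klrd1 by 3.82 ± 1.21, Cd244 by 3.54 ± 0.62 and Klrk1 by 2.61 ± 0.73. Klrd1 and Klrk1 lost these calls when single tumors were left out, with adjusted p of up to 0.178 and 0.122.

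exoCDN2 and CDN2 (20 µg) at 2 doses were compared directly, and Klrc1 was the one gene of the 9 called, higher after exoCDN2 by 1.75 ± 0.45 on the log2 scale (adjusted p = 0.0129), where 7.34% of all genes were called higher. That call ended without exoCDN2 replicate 1 or CDN2 replicate 1 and in a fit of these 2 groups alone, with adjusted p of up to 0.0785 when a tumor was left out. For the activating and partner chain genes the difference had an interval that reached from near 0 or below to several units. It was 1.70 for Ncr1 (95% CI -0.40 to 3.81), 1.76 for Klrb1c (0.31 to 3.21), 2.18 for Klrc2 (0.22 to 4.14), 1.17 for Klrd1 (-0.47 to 2.82), 1.15 for Klrk1 (0.09 to 2.21) and 1.47 for Klre1 (-0.01 to 2.94). Klrb1c, Klrc2 and Klrk1, with intervals above 0, had an unadjusted p of 0.0215, 0.0321 and 0.0363 in edgeR's test. They did not pass after adjustment (adjusted p = 0.0552, 0.0741 and 0.081). Klrg1 at -0.42 (-1.54 to 0.70) and Cd244 at 0.26 (-0.62 to 1.13) had estimates nearest to 0. Without a filter on low counts the count of called receptor genes was 7. Over all genes, that fit called 3893 higher or lower, against 3279 with the filter. In the same comparison 4 of 9 T cell genes were called higher and 4 of 5 neutrophil genes lower after exoCDN2. Genes of NK identity and killing summed to 370.0 to 533.9 CPM after exoCDN2 and to 521.0 to 846.7 CPM after CDN2. The other NK receptor genes summed to 63.24 to 102.8 and 49.46 to 88.8 CPM. Both lists had overlapping ranges, so a higher level after exoCDN2 was not a trait of all NK lists.

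**Figure D3:**
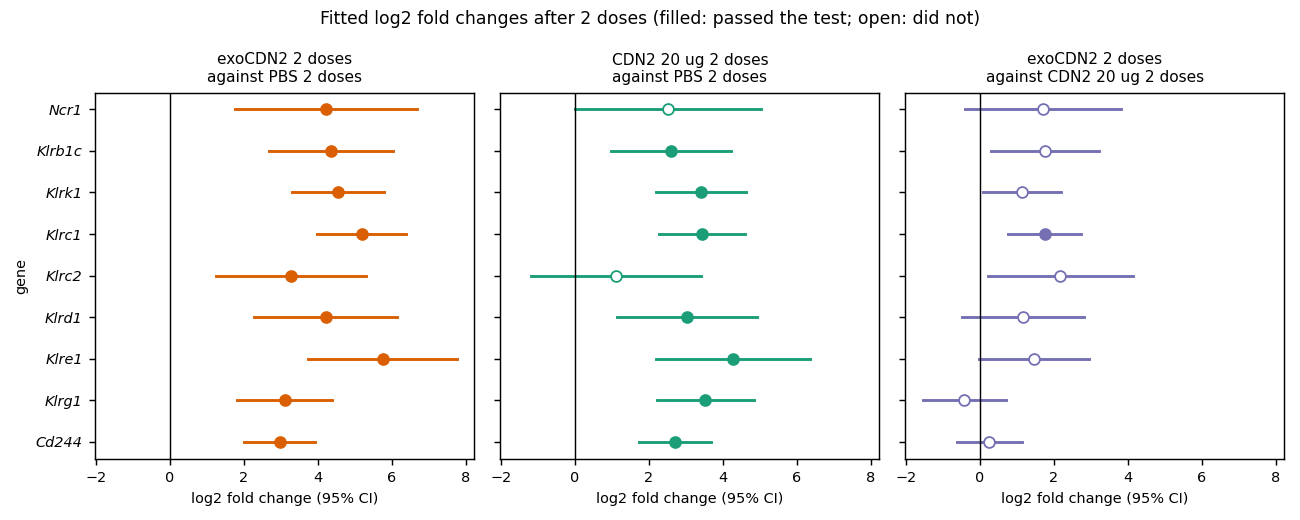
Fitted log2 fold changes of the 9 genes in 3 comparisons of tumors given 2 doses (2 tumors per group). Points are estimates from edgeR's fit to 16 tumors, lines are 95% confidence intervals, filled points passed the test and open points did not. All 9 points are filled for exoCDN2 against PBS, 7 for CDN2 (20 µg) against PBS and 1, Klrc1, for exoCDN2 against CDN2.

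After 1 dose no receptor gene was called higher than after PBS in the fit to 16 tumors. Klrg1 was called higher after exoCDN2 without a filter on low counts (adjusted p = 0.0168 in edgeR's test) and in a fit of the compared groups alone (adjusted p = 0.0258). Cd244 was called lower in the same 2 fits, by -1.38 and -1.37 on the log2 scale (adjusted p = 0.0421 and 0.0215 in edgeR's test). These fits called 1166 and 1300 genes in all, against 444 in the fit to 16 tumors. Unloaded EVs changed 0 of the 9 genes in edgeR's test, where 0 of 16927 genes passed. DESeq2 called 1 of the 9, lower, where it called 35 genes in all. At an unadjusted p under 0.05 edgeR gave 1, Klrc1, at 0.108 and 0.350 CPM against 1.05 and 1.80 CPM after 1 dose of PBS (-2.65 ± 0.53, adjusted p = 0.438). CDN2 (20 µg) changed 0 of 9 by edgeR and by DESeq2, and 0 of 9 at an unadjusted p under 0.05; 3.14% of all genes were called. After exoCDN2, Klrc1 was lower, with a log2 fold change of -2.39 ± 0.51 (adjusted p = 0.0241), where 0.425% of all genes were called lower, and the call ended without any 1 of the 4 tumors. After CDN2 (100 µg), Klrc1 was lower by a log2 fold change of -4.22 ± 0.62 (3 counts in each tumor, adjusted p = 0.0035) and Cd244 by -2.05 ± 0.48 (adjusted p = 0.0409), where 0.62% of all genes were called lower. The call of Cd244 ended without any 1 of the 4 tumors, and that of Klrc1 without CDN2 replicate 1 (adjusted p = 0.0512). These calls share the 2 tumors given 1 dose of PBS, which had the highest Klrc1 of the 1-dose groups. With all 4 PBS tumors pooled, 0 of the 9 genes were called for exoCDN2 or CDN2 (100 µg), where 685 and 600 genes were called in all.

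Klrk1 and Klrg1 had estimates above PBS after 1 dose of both exoCDN2 and CDN2 (20 µg). Ncr1 was above PBS after exoCDN2 (0.79) and unloaded EVs (0.84), and Klrg1 also after unloaded EVs and CDN2 (100 µg), none of which passed the test. Klrk1 was at 3.19 and 3.47 CPM after exoCDN2 and at 2.63 and 4.96 CPM after CDN2 (20 µg), against 1.49 and 2.87 CPM after PBS. Klrg1 was at 0.278 and 0.483 CPM after exoCDN2 and at 0.198 and 0.249 CPM after CDN2 (20 µg), against 0.0656 and 0.0990 CPM. Neither passed the test in the fit to 16 tumors, with adjusted p of 0.618 and 0.482 for Klrk1 and of 0.138 and 0.401 for Klrg1. Between exoCDN2 and CDN2 (20 µg) at 1 dose, 0 of the 9 genes were called by edgeR or by DESeq2, and 1, Klrc1, had an unadjusted p under 0.05 (-1.39 ± 0.53, adjusted p = 0.177). In all, 0.608% of genes were called there. Relative to Ptprc, 6 of the 9 genes lay below PBS in both tumors after exoCDN2 and after CDN2 (20 µg), and 8 after CDN2 (100 µg). The shares of all genes below PBS on this scale were 81.7%, 15.3% and 49.9%.

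The tumors given 2 doses of CDN2 of no given amount were compared with 2 doses of PBS in a fit to all 18 tumors and 17110 genes. Klrc1 was called higher, at 1.54 and 3.22 CPM, by 3.55 ± 0.57 on the log2 scale (adjusted p = 0.00518), where 0.918% of all genes were called higher. Klrk1 at 2.38 ± 0.54 (adjusted p = 0.0574), Klrd1 at 2.95 ± 0.93 (adjusted p = 0.223) and Klre1 at 3.22 ± 0.95 (adjusted p = 0.181) did not pass. That call ended without replicate 2 of the treated or of the PBS tumors, with adjusted p of 0.0686 and 0.149. With the PBS tumors pooled, 0 of the 9 genes and 0 of all genes were called. Neutrophil genes in these tumors summed to 2.59 and 5.06 CPM, below those of the tumors given 2 doses of CDN2 (20 µg).

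Over the 9 groups, 2 doses of exoCDN2 gave the highest mean for 8 genes and 1 dose of CDN2 (100 µg) the lowest for 6. Ncr1 had means of 2.02 ± 0.04 CPM (SD, n = 2) after 2 doses of exoCDN2, 0.559 ± 0.711 after 2 of CDN2 (20 µg), 0.323 ± 0.184 after 2 of CDN2 of no given amount, 0.282 ± 0.308 after unloaded EVs and 0.269 ± 0.043 after 1 of exoCDN2. PBS at 0.152 ± 0.122 after 1 dose, CDN2 (20 µg) at 0.109 ± 0.120 after 1 dose, PBS at 0.103 ± 0.084 after 2 doses and CDN2 (100 µg) at 0.0124 ± 0.0175 followed. Of the 8 pairs of neighbours in that order, 5 had overlapping ranges, and the 3 that did not were the highest pair, the lowest pair and the pair of 1 dose of exoCDN2 and 1 dose of PBS. In Klrb1c the mean fell from 5.68 ± 2.15 CPM to 1.61 ± 1.25, 0.776 ± 0.371 and 0.465 ± 0.474 over the same first 4 groups, and the remaining 5 groups lay between 0.0924 ± 0.0656 after 1 dose of exoCDN2 and 0.325 ± 0.067 after 1 dose of PBS, with 5 of 8 neighbours overlapping. Klrk1 had a different order, with 12.1 ± 2.3 CPM after 2 doses of exoCDN2, 5.47 ± 1.77 after 2 of CDN2 (20 µg), 3.79 ± 1.65 after 1 of CDN2 (20 µg), 3.33 ± 0.20 after 1 of exoCDN2, 2.69 ± 0.83 after CDN2 of no given amount, 2.18 ± 0.98 after 1 of PBS, 1.86 ± 0.58 after unloaded EVs, 1.33 ± 0.19 after CDN2 (100 µg) and 0.507 ± 0.408 after 2 of PBS. The first step and the last were the ones without overlap.

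Klrc1 had means of 7.40 ± 1.19 CPM after 2 doses of exoCDN2, 2.38 ± 1.19 after CDN2 of no given amount, 2.15 ± 0.82 after 2 of CDN2 (20 µg), 1.43 ± 0.53 after 1 of PBS, 0.714 ± 0.204 after 1 of CDN2 (20 µg), 0.272 ± 0.104 after 1 of exoCDN2, 0.229 ± 0.171 after unloaded EVs, 0.199 ± 0.065 after 2 of PBS and 0.0737 ± 0.0007 after CDN2 (100 µg). Its order had the most separated neighbours of the 9 genes, with 4 of 8 overlapping. Klrc2 stood at 0.837 ± 0.167 CPM after 2 doses of exoCDN2 and at or below 0.161 ± 0.148 in every other group, near the limit of counting. Klrd1 was at 4.99 ± 1.73 CPM after 2 doses of exoCDN2, 2.13 ± 2.06 after 2 of CDN2 (20 µg) and 2.09 ± 1.83 after CDN2 of no given amount, with 7 of 8 neighbours overlapping, and its other 6 groups lay between 0.0854 ± 0.1208 and 0.793 ± 0.224. Klre1 was at 1.87 ± 0.39, 0.629 ± 0.573 and 0.320 ± 0.001 CPM in the same 3 groups, and between 0.0247 ± 0.0350 and 0.258 ± 0.055 elsewhere.

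Klrg1 and Cd244 set 2 doses of CDN2 (20 µg) close to 2 doses of exoCDN2. Klrg1 was at 2.93 ± 0.81 CPM after CDN2 and 2.22 ± 1.24 after exoCDN2, which overlapped, and then at 0.443 ± 0.202 or below. Its lowest mean was 0.0823 ± 0.0236 CPM after 1 dose of PBS. Cd244 was at 4.71 ± 1.63 CPM after exoCDN2 and 3.96 ± 1.54 after CDN2, again overlapping, and the next group, CDN2 of no given amount, was at 1.31 ± 0.10. It was at 1.12 ± 0.23 CPM after 1 dose of PBS, 1.01 ± 0.20 after unloaded EVs and 0.271 ± 0.107 after CDN2 (100 µg).

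Across the 16 tumors of the labelled amounts, each receptor gene's log2 level was correlated with the mean of the 9 at Pearson's r of 0.795 (Klrk1) to 0.933 (Klrc1), where each gene is part of that mean. Between pairs of receptor genes the lowest r was 0.587, for Klrb1c and Klrk1, and the highest 0.878, for Klrc1 and Klrd1. Klrc1 and Cd244 (0.875) and Ncr1 and Klrc2 (0.873) were close to that. The genes outside the 9 whose pattern was most like their mean were Sept1 (r = 0.974), Stk26 (0.966), Il2rb (0.965), which encodes a receptor chain for interleukins that NK cells need, Gimap7 (0.958), Jakmip1 (0.954), Gimap3 (0.950), Pira2 (0.949), Sh2d2a (0.948), Ptpn22 (0.945) and Arhgap45 (0.943). Taken singly, Klrg1 was most like Gzma (r = 0.933), Klrk1 most like Serpinb9 (0.963), Klrc1 most like Gimap7 (0.967), Klre1 most like Stk26 (0.958) and Cd244 most like Lrrc25 (0.967). Ncr1 was most like P2ry10 (0.93), Klrb1c most like Tlr1 (0.943), Klrc2 most like Gm15448 (0.923) and Klrd1 most like Ocstamp (0.947). These are descriptions over 16 tumors in 8 groups that share depth and treatment.

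**Figure D4:**
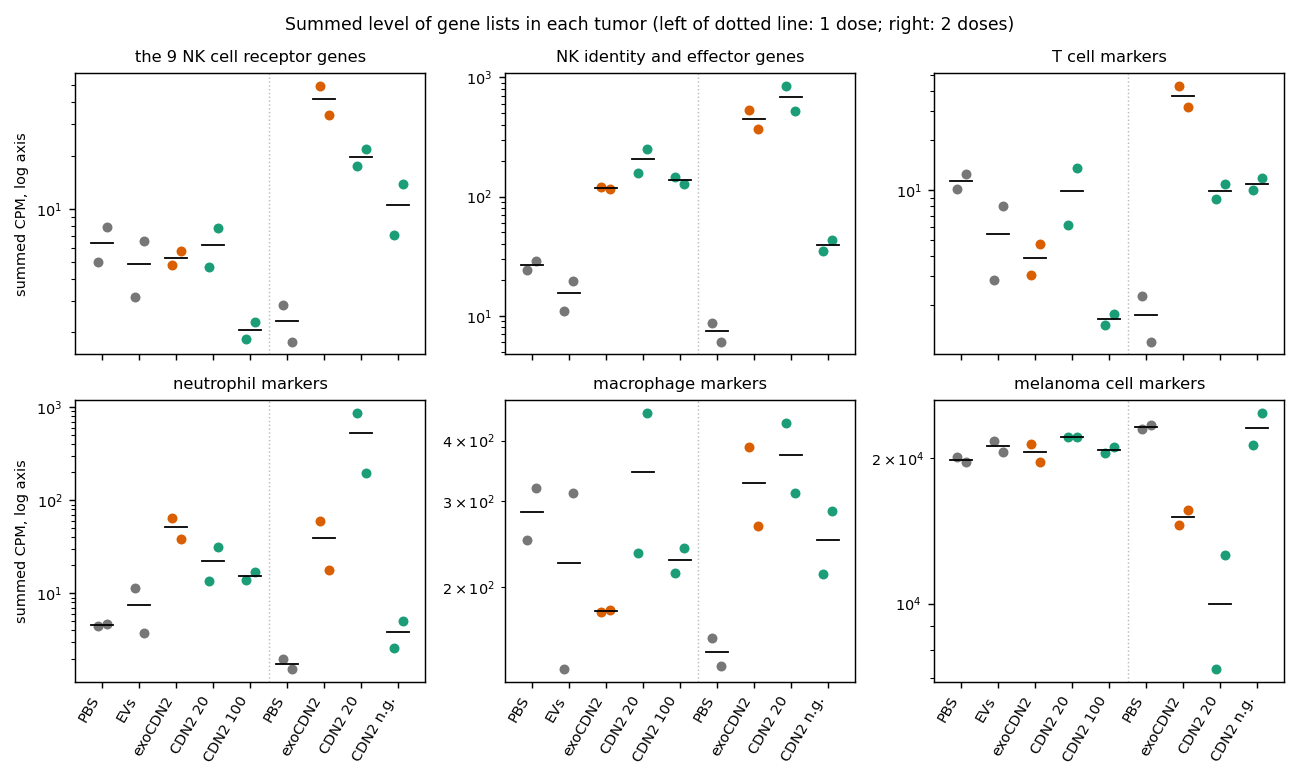
Summed CPM of the 9 NK cell receptor genes and of 5 lists of marker genes in each tumor, on log axes whose ranges differ between panels. Points are single tumors (2 per group) and horizontal bars are group means, with groups and colours as in the plot of CPM for each gene. The receptor genes and the T cell genes share their highest tumors, those given 2 doses of exoCDN2, while the neutrophil genes are highest after 2 doses of CDN2 (20 µg).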

How the data were processed

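RNA-seq of 18 whole B16F10 tumors in 9 groups of 2 was used. Per the labels and the study's methods, the authors filtered Illumina reads of 150 bases, aligned them with OSA to GRCm38 (mm10 in the submitters' processing notes) and deposited RSEM expected counts per Ensembl gene, of which 50376 of 50600 matched GENCODE M21. Expected counts were rounded to whole numbers. Genes past a count of 10 (0.2331 CPM) in at least 2 tumors and 15 in total entered edgeR 4.0.16 (R 4.3.3): TMM factors, a quasi-likelihood fit to 16 tumors in 8 groups with no covariate, Benjamini-Hochberg adjustment over 16927 genes, and calls at an adjusted p under 0.05 with a ratio over 2. The tumors whose CDN2 amount the labels do not give entered a separate fit of 18 tumors. DESeq2 1.42.0 was an alternative. Exact permutation of 2 against 2 tumors cannot go below p = 0.333 and was not used. The scripts were tested on simulated data. Replicate numbers did not pair tumors (correlations of deviations from -0.18 to 0.31, mean 0.0067).

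All members were named; from each list at most 3 called genes with the largest changes in either 2-dose comparison with PBS, the 10 genes most like the members, and the nearest gene of a member. The members and lists were chosen with earlier results of these data known. Total expected counts of 21608895 to 65983630 per tumor left most receptor genes at few counts outside the tumors given 2 doses of exoCDN2. Of the listed genes, 2 had no match.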

Additional observations from a re-analysis of the deposited data

Results flagged for a closer look

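The change between 1 and 2 doses differed between an agonist and PBS for the receptor genes below, by the interaction term of edgeR's fit with an adjusted p under 0.05. For exoCDN2 the difference in log2 fold change was 7.58 for Klrc1, 6.45 for Klre1, 6.10 for Klrb1c, 5.54 for Klrd1, 4.35 for Cd244 and 3.94 for Klrk1. For CDN2 (20 µg) it was 5.99 for Klre1, 4.44 for Klrc1, 3.82 for Klrd1, 3.54 for Cd244 and 2.61 for Klrk1. Both sets of differences share the 4 PBS tumors, in which Klrc1 itself was lower after 2 doses than after 1 dose. Groups of 2 tumors were too small to be searched for a tumor that stands apart.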

How the results depend on the processing

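The call of all 9 receptor genes as higher after 2 doses of exoCDN2 than of PBS was also given by DESeq2 and with pooled PBS tumors, and Klrb1c, Klrc1, Klrk1, Klre1, Klrg1 and Cd244 were called with any 1 of the 4 tumors left out. Ncr1 was called in 0 of these 4 fits, Klrc2 in 1 and Klrd1 in 3. Without a filter on low counts, the number of receptor genes called after 1 dose was 3 for exoCDN2, 1 for unloaded EVs and 5 for CDN2 (100 µg). Calls over all genes rose there too, to 1166, 227 and 1178, from 444, 0 and 413 with the filter. The number was 7 for exoCDN2 against CDN2 at 2 doses, 4 for PBS between doses and 4 for CDN2 of no given amount. Calls over all genes were 3893, 766 and 713 there, against 3279, 186 and 164 with the filter. DESeq2 gave 1 for unloaded EVs, 2 for exoCDN2 against CDN2 at 2 doses, 2 for PBS between doses and 3 for CDN2 of no given amount. Its calls over all genes were 35, 3346, 388 and 356. With pooled PBS tumors the number of receptor genes was 0 for 1 dose of exoCDN2, CDN2 (100 µg) and CDN2 of no given amount. Calls over all genes were 685, 600 and 0 there. Fitting the compared groups alone gave 3 for 1 dose of exoCDN2, 0 for exoCDN2 against CDN2 at 2 doses, 1 for CDN2 and 0 for PBS between doses, 3 for CDN2 between doses relative to PBS and 3 for CDN2 of no given amount. The cause was not tested.

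With the replicate block, CDN2 (100 µg) had 1 call (394 over all genes), and no other count of receptor genes moved by over 1.5 times. Exchanging the numbers of the tumors given 2 doses of CDN2 (20 µg), whose correlation with PBS was -0.13, gave 7 against PBS, 1 for exoCDN2 against it, 5 between doses and 4 relative to PBS. Calls over all genes were 5185, 3256, 3503 and 2781 there.

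Leaving out 1 tumor at a time gave 0 to 1 calls for CDN2 (100 µg), 2 to 7 for CDN2 between doses, 3 to 5 relative to PBS, 4 to 8 for CDN2 (20 µg) against PBS at 2 doses, 0 to 3 for CDN2 of no given amount, 0 to 1 for PBS between doses, 0 for 1 dose of exoCDN2, 3 to 7 for exoCDN2 between doses and 0 to 6 for exoCDN2 against CDN2 at 2 doses. Log2 fold changes that changed sign in this way were those of Ncr1 for CDN2 (20 µg) at 1 dose (-2.50 to 0.68), at 2 doses (-0.92 to 3.72), between doses (-0.94 to 4.47) and relative to PBS (-0.40 to 5.01); Klrc2 for CDN2 at 2 doses (-0.60 to 6.00); Klrc2 (-0.34 to 0.72) and Klrk1 (-0.56 to 0.34) for exoCDN2 against CDN2 at 1 dose; Cd244 (-0.12 to 0.71) and Klrg1 (-1.12 to 0.0862) at 2 doses. For unloaded EVs they were Klrd1 (-1.19 to 0.0087), Klrk1 (-0.63 to 0.32), Cd244 (-0.38 to 0.0619), Ncr1 (-1.21 to 2.03), Klrb1c (-1.30 to 1.30), Klrc2 (-0.52 to 0.95) and Klrg1 (-0.34 to 1.82). Between doses of PBS they were Klrc2 (-5.09 to 0.77), Ncr1 (-1.75 to 0.65) and Klrb1c (-0.56 to 0.0137), and for CDN2 of no given amount Klrc2 (-0.32 to 5.55). None of these was a called value.

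Pooled PBS tumors turned Klre1 for 1 dose of exoCDN2 to 0.11, Klrg1 for CDN2 (100 µg) to -0.44, and for unloaded EVs Klrd1 to 0.0987, Klrk1 to 0.46, Klre1 to 0.0724 and Cd244 to 0.22. Relative to Ptprc, an alternative chosen after seeing the data, Klrg1 at -0.66 and Cd244 at -0.61 turned for 2 doses of exoCDN2 against PBS, and Klrc2 at -0.93 for CDN2 (20 µg). Over all genes, exoCDN2 against PBS at 2 doses gave 1920 calls, and 3034 with no limit on the ratio; exoCDN2 against CDN2 gave 3279, and 30 in a fit of these groups alone.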

Other observations

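After 1 dose, the list of genes of NK identity and killing summed to at least 114.8 CPM in each tumor after exoCDN2 and to 24.3 and 29.0 CPM after PBS, while the receptor genes summed to 4.82 to 5.77 and 4.99 to 7.88 CPM. Ccl5, which other cell types also make, was at 97.2 and 83.5 CPM after exoCDN2, most of the list's sum there, and at 4.20 and 4.75 CPM after PBS. Of the 14 genes of that list, 1 was called higher after exoCDN2 and 1 after CDN2 (20 µg). The difference between the lists was not tested.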
